A study of Homo sapiens with 6 samples.

Results

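Replicate 1 of wild-type (WT) and of THUMPD1 KO HEK-293T cells was compared with replicates 2 and 3 of the same genotype. The comparison used 6 samples of 6 in the series, with 2 RNA-seq libraries on the side of replicate 1 and 4 on the side of replicates 2 and 3. The split was chosen by measured values: earlier results of these data had shown that the libraries numbered 1 deviated together in both genotypes. All differences between replicate 1 and replicates 2 and 3 are therefore given as a description. Where a gene is said to be called higher or lower in replicate 1, its limma-voom adjusted p passed 0.05, which here marks a gap that is large for its spread and is not a test, since the same values chose the split. The difference between genotypes in this contrast is likewise given as a description, since it rests on 1 library per genotype. Tests are given only for the genotype contrast.

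HEK-293T is an immortalized human embryonic kidney line that carries the SV40 large T antigen. THUMPD1 KO cells were made from it with CRISPR-Cas9 and are 1 clone grown from a single sorted cell, so clone and genotype cannot be told apart. THUMPD1 is the adaptor protein through which NAT10 acetylates cytidine in tRNA. No treatment, time or culture batch separates the replicates in the labels, which also do not say what a replicate number marks or whether replicates came from separate cultures. The spread between replicates may thus be technical.

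Ribosomal RNA-depleted total RNA was sequenced, and the libraries held between 32225646 and 44099898 expected counts. Of 58870 genes in the table, 15088 reached 1 CPM (counts scaled to the total of each library) in at least 3 of the 6 libraries and were tested. CYP46A1 lay just inside this limit, with a third-highest value of 1.0036 CPM, and FBXW10B just outside it, with 0.9995 CPM. THUMPD1 was read at 77.3, 84.6 and 80.8 CPM in WT replicates 1, 2 and 3 and at 10.2, 12.0 and 10.9 CPM in THUMPD1 KO replicates 1, 2 and 3, so each library matched its label. All 6 HEK-293T markers listed passed the filter. Of 10 kidney tubule and podocyte markers listed 2 passed, LRP2 at 51.1 to 66.4 CPM and CUBN at 1.25 to 2.49 CPM. UMOD, AQP2 and SLC34A1, markers of kidney tubule cells on that list, were at 0 in all 6 libraries. Mitochondrial genes took 2.81 to 3.32% of the counts. In WT the share was highest in replicate 1, at 3.25% against 3.01% and 2.81% in replicates 2 and 3. In THUMPD1 KO replicate 1 lay between the others, at 3.11% against 3.32% and 3.10%.

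Several of the genes that differed belong to the amino acid response. When uncharged tRNA or another stress leads to phosphorylation of the initiation factor eIF2, the transcription factor ATF4 is translated more and switches on genes for amino acid synthesis, amino acid transport and tRNA charging. Cytosolic heat shock genes form a separate program. They encode chaperones that fold proteins and are driven by the transcription factor HSF1.

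Replicate 1 stood apart in both genotypes by overall distance. In log2 values after quantile normalization, the median absolute difference per gene was 0.113 between WT replicates 1 and 2, 0.108 between 1 and 3, and 0.0599 between 2 and 3. In THUMPD1 KO it was 0.0993 between replicates 1 and 2, 0.0932 between 1 and 3, and 0.0803 between 2 and 3. In both genotypes the pair without replicate 1 was the closest, by a wider margin in WT than in THUMPD1 KO. The chi-square per degree of freedom, which is near 1 for counting noise alone, was 18.0 and 18.3 for the WT pairs with replicate 1 and 4.29 for the pair without it. In THUMPD1 KO it was 13.7 and 9.72 against 6.67, so no pair of libraries agreed within counting noise. The first principal component (63.2% of the variance) separated the genotypes. The second (14.1%) put WT replicate 1 at 8.99 and THUMPD1 KO replicate 1 at 21.2, and the other 4 libraries between −11.1 and −3.92.

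**Figure D1:**
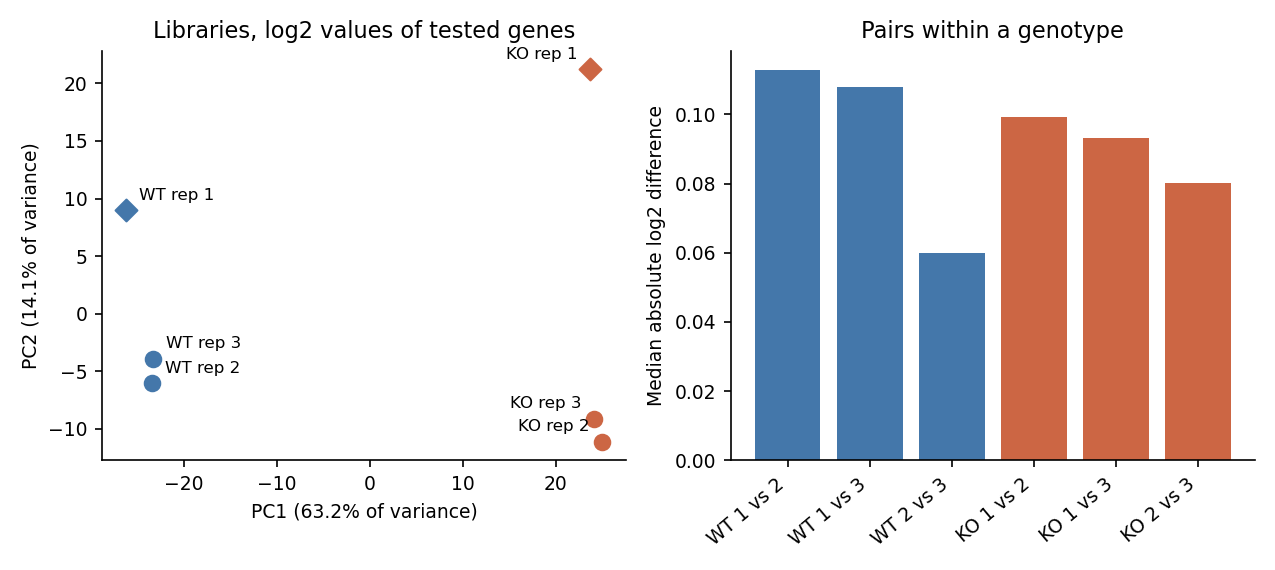
Left, the 6 libraries on the first (63.2% of variance) and second (14.1%) principal components of quantile-normalized log2 values of 15088 genes, with diamonds for replicate 1 and circles for replicates 2 and 3. Right, the median absolute log2 difference per gene for each pair of libraries of a genotype. Both diamonds lie above the circles, and the bars for replicates 2 and 3 (0.0599 and 0.0803) are the lowest of their genotype.

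In the fit with genotype as a term, 255 genes (1.69% of those tested) were higher and 156 (1.03%) lower in replicate 1 at an adjusted p under 0.05 by limma-voom. Since the split was chosen on these values, nothing is read from these shares. With DESeq2 the balance turned, with 237 higher and 336 lower, and with library sizes alone 775 were higher and 168 lower. With the replicate number as a block, which assumes that the numbers pair the libraries, 252 genes were called, 160 higher and 92 lower. The differences were small: the median size among the 411 called genes was 0.28 on the log2 scale, 349 of them were below 0.5, and 5 reached 1. All 411 had replicate 1 outside the range of replicates 2 and 3 in the same direction in both genotypes. The fit has 1 side term for both genotypes, so this agreement is in part built into the call.

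Across all 15088 genes, agreement between genotypes was partial. Replicate 1 lay above replicates 2 and 3 in both genotypes for 2850 genes (18.9%) and below them in both for 2864 (19.0%). It lay outside in opposite directions for 3130 genes (20.7%). Pearson's r between the WT and the THUMPD1 KO difference was 0.171 across all genes and 0.265 across the 10282 genes with a mean of at least 10 CPM, a correlation across genes, which are not independent replicates and share libraries. A difference of 1.5-fold or more was seen for 308 genes in WT and 293 in THUMPD1 KO, of which 48 passed in both with the same sign and 14 with opposite signs. The median difference over all genes was close to 0 in both genotypes (−0.00092 in WT and 0.0012 in THUMPD1 KO). Quantile normalization gives all libraries the same distribution, so this is largely set by the method. With library sizes alone the medians were 0.046 in WT and 0.033 in THUMPD1 KO.

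**Figure D2:**
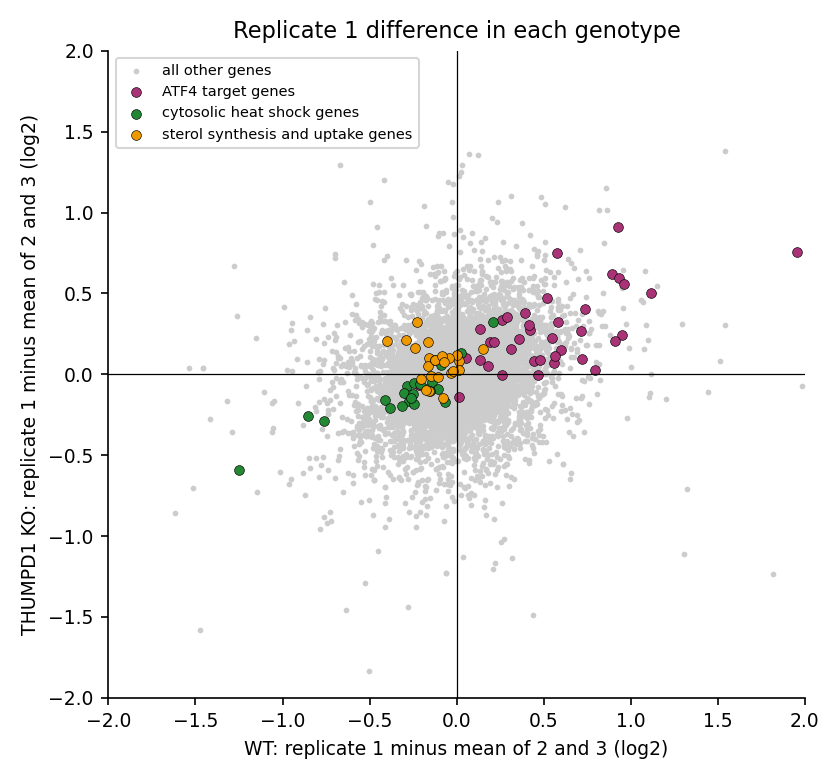
Each point is a gene, with the replicate 1 difference (log2, replicate 1 minus the mean of replicates 2 and 3) of WT on the horizontal axis and of THUMPD1 KO on the vertical axis. Of 38 ATF4 target genes, 33 had replicate 1 above replicates 2 and 3 in both genotypes, and of 22 heat shock genes 19 had it below in both. Sterol genes lie mostly left of 0 in WT and above 0 in THUMPD1 KO. There are 22 genes beyond the axis limits of 2 that are not drawn.

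ATF4 target genes were mostly higher in replicate 1. Of 40 listed genes 38 were tested, while FGF21 and NUPR1 were below the filter. Replicate 1 was above replicates 2 and 3 in both genotypes for 33 of the 38 (18.9% of all tested genes were so), and 25 were called higher and 0 lower (1.69% and 1.03% of all tested genes). The median difference was 0.37 on the log2 scale, 0.50 in WT and 0.22 in THUMPD1 KO, against a median near 0 over all genes. The summed level of the list was 5615 CPM in WT replicate 1 against 4078 and 4306 in replicates 2 and 3. In THUMPD1 KO it was 4108 CPM in replicate 1 against 3583 and 3594. The list was drawn up with results of these data known and does not stand as independent evidence of its direction. Over all settings the median stayed between 0.23 and 0.50, and the number called ranged from 10 when WT replicate 1 was left out to 31 when that of THUMPD1 KO was. No member was called without the CPM filter.

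ATF4 itself, whose output is set largely by translation, was read at 626, 516 and 542 CPM in WT replicates 1, 2 and 3 and at 473, 425 and 422 CPM in THUMPD1 KO. Its mRNA was the highest in replicate 1 of each genotype, by 0.24 ± 0.04 on the log2 scale (SE, 6 libraries). CHAC1 (ENSG00000128965.13, chromosome 15, 40952962 to 40956512), which degrades glutathione, had the widest gap. It was read at 22.4, 4.62 and 6.22 CPM in WT and at 6.15, 3.42 and 3.44 CPM in THUMPD1 KO. Its difference was 1.96 in WT and 0.76 in THUMPD1 KO on the log2 scale, so both genotypes went the same way and WT went further.

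Some members act in amino acid and one-carbon metabolism. PCK2 (ENSG00000100889.11, chromosome 14, 24094053 to 24110598), the mitochondrial phosphoenolpyruvate carboxykinase, was read at 32.2, 14.6 and 18.9 CPM in WT and 15.03, 7.21 and 8.10 CPM in THUMPD1 KO. ASNS (ENSG00000070669.17, chromosome 7, 97851677 to 97872542), asparagine synthetase, was read at 238, 153 and 164 CPM in WT and 179, 106 and 111 CPM in THUMPD1 KO. Its annotated span overlaps another gene on the same strand. The gap was 0.93 in WT and 0.91 in THUMPD1 KO on the log2 scale for PCK2. For ASNS it was 0.57 in WT and 0.75 in THUMPD1 KO, so it was the wider in THUMPD1 KO. CTH, which makes cysteine from cystathionine, was read at 41.5, 17.8 and 20.1 CPM in WT, and its difference was 1.11 in WT and 0.50 in THUMPD1 KO on the log2 scale. The serine synthesis genes PHGDH and PSAT1 were higher in replicate 1 by 0.30 ± 0.04 and 0.39 ± 0.04, and the mitochondrial folate genes SHMT2 and MTHFD2 by 0.21 ± 0.04 and 0.35 ± 0.04 (log2 ± SE).

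Of the amino acid carriers, 2 are given here. SLC7A11, the cystine importer, was read at 299.9, 152 and 165 CPM in WT and 158, 108 and 102 CPM in THUMPD1 KO. SLC6A9, a glycine transporter, was read at 33.9, 17.6 and 16.3 CPM in WT and 15.3, 9.93 and 9.84 CPM in THUMPD1 KO. Neither gene's replicate 1 overlapped the other replicates of its genotype. Among regulators of the pathway, SESN2 (0.63 ± 0.12), DDIT3 (0.59 ± 0.12) and ATF3 (0.58 ± 0.12) were higher, JDP2 was higher by 0.78 ± 0.10, and TRIB3 was at 0.20 ± 0.07 without being called. ATF5 (−0.14 ± 0.08) and ALDH18A1 (−0.06 ± 0.04) were the members with a negative difference.

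**Figure D3:**
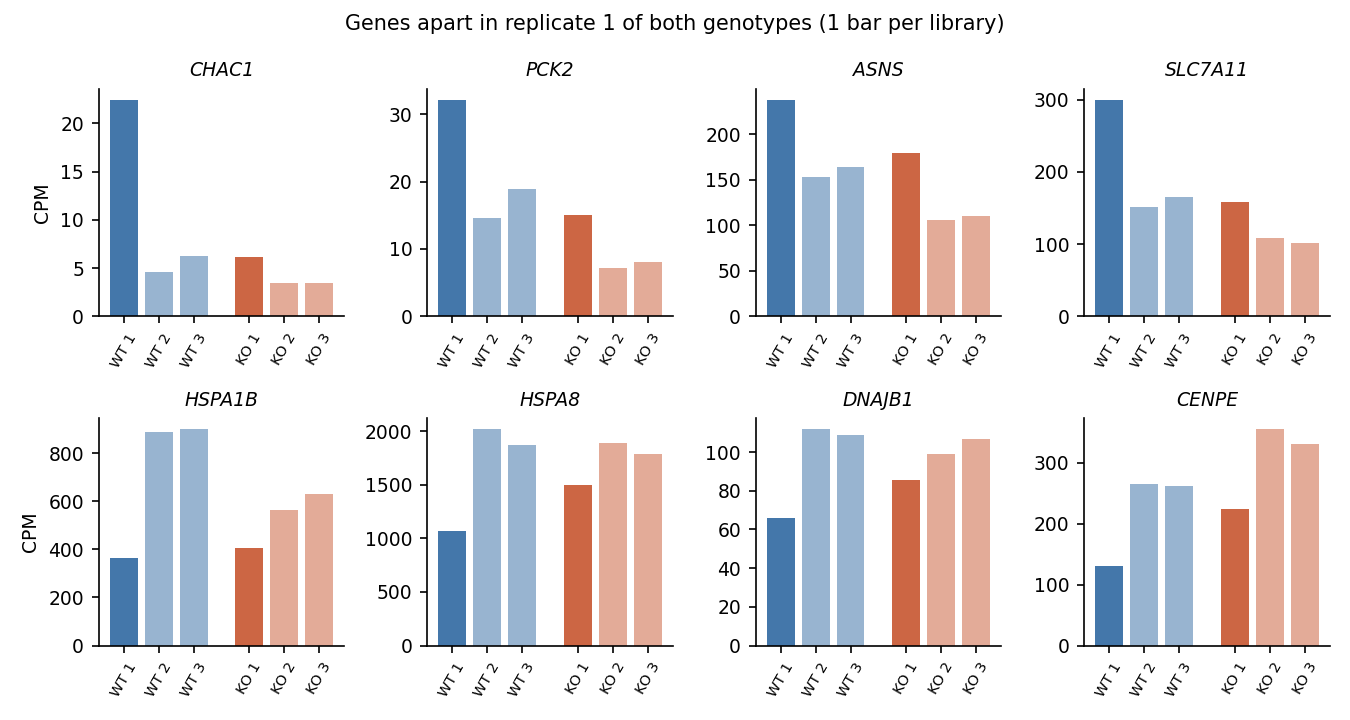
CPM of 8 genes, 1 bar per library, with replicate 1 in full colour and replicates 2 and 3 paler. In each panel the replicate 1 bar lies above (CHAC1, PCK2, ASNS, SLC7A11) or below (HSPA1B, HSPA8, DNAJB1, CENPE) the other bars of its genotype.

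Cytosolic aminoacyl-tRNA synthetases, the enzymes that charge tRNA, were higher in part. All 20 were tested, and 8 were called higher and 0 lower (1.69% and 1.03% of all tested genes). The median was 0.13 on the log2 scale (0.14 in WT and 0.11 in THUMPD1 KO), and 13 members had replicate 1 above in both genotypes (18.9% of all tested genes). The number called was 1 when WT replicate 1 was left out, 4 when WT replicate 3 was, and 5 when WT replicate 2 or THUMPD1 KO replicate 2 was. It was 5 with edgeR and with quality weights and 0 without the CPM filter. CARS1, which charges cysteine tRNA, had the widest gap, at 74.8, 53.4 and 53.2 CPM in WT and 65.9, 56.0 and 55.1 CPM in THUMPD1 KO. YARS1 (0.27 ± 0.04), GARS1 (0.27 ± 0.05) and SARS1 (0.22 ± 0.04) followed. FARSA had the lowest value, −0.13 ± 0.04, and was not called.

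Promoters of both lists were searched for the letters of the C/EBP-ATF response element, the composite site that ATF4 binds with C/EBP proteins, written as TGATGNAA and read on both strands. RefSeq promoter windows of GRCh38.p14, from 250 bases before to 50 after each gene's start, were at hand for 32 of the 40 ATF4 targets and 16 of the 20 synthetases. The letters were found for 11 of the 32 ATF4 targets and 7 of the 16 synthetases, and for 4.46% of 27305 genes with a window. Windows of 30 bases around the match are shown for 4 ATF4 targets and 4 synthetases called higher in replicate 1, with the matched letters in capitals and each written along its gene's strand. A match is a description of the letters and not of binding.
ASNS: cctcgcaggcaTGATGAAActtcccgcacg
CHAC1: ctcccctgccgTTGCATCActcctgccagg
ATF3: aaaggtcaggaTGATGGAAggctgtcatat
SLC7A1: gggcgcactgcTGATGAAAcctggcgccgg
CARS1: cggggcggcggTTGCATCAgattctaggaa
AARS1: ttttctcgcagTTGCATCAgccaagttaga
IARS1: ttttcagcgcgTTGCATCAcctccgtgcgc
MARS1: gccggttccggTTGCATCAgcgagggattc
These windows are chr7:97872458-97872487 (minus strand) for ASNS, chr15:40953251-40953280 (plus) for CHAC1, chr1:212565205-212565234 (plus) for ATF3 and chr13:29595663-29595692 (minus) for SLC7A1. Those of the synthetases are chr11:3057407-3057436 (minus) for CARS1, chr16:70289675-70289704 (minus) for AARS1, chr9:92293692-92293721 (minus) for IARS1 and chr12:57488053-57488082 (plus) for MARS1. In GENCODE 44 the window of ATF3 touches no exon, and each of the other windows touches an exon of at least 1 transcript of its own gene. The 4 synthetases carry the same letters, TTGCATCA, which CHAC1 also carries.

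Cytosolic heat shock genes went the other way. Of 25 listed genes 22 were tested, while HSPA1A, HSPA6 and CRYAB were below the filter. Replicate 1 was below replicates 2 and 3 in both genotypes for 19 of the 22 (19.0% of all tested genes were so), and 11 were called lower and 1 higher (1.03% and 1.69% of all tested genes). The median difference was −0.18 on the log2 scale, −0.25 in WT and −0.12 in THUMPD1 KO. The summed level of the list was 9514 CPM in WT replicate 1 against 12194 and 11983 in replicates 2 and 3, and 10321 CPM in THUMPD1 KO replicate 1 against 11617 and 11466. Over all settings the median stayed between −0.25 and −0.12. The number called in either direction was 2 when WT replicate 1 was left out, 5 when WT replicate 3 was and 7 when THUMPD1 KO replicate 2 was. No member was called without the CPM filter.

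HSPA8 (ENSG00000109971.14, chromosome 11, 123057489 to 123063230), the constitutive HSP70 chaperone, was read at 1074, 2021 and 1872 CPM in WT and 1500, 1892 and 1789 CPM in THUMPD1 KO. The replicate 1 library was the lowest of its genotype in both, by 0.85 in WT and 0.26 in THUMPD1 KO on the log2 scale. HSPA1B (ENSG00000204388.7, chromosome 6, 31827738 to 31830254), an inducible HSP70, was read at 362, 887 and 900.3 CPM in WT and 407, 562 and 631 CPM in THUMPD1 KO. HSPA1B is nearly identical to HSPA1A and overlaps another annotated gene on its strand, so how its reads were divided is uncertain. DNAJB1, a co-chaperone of HSP70, was read at 66.1, 112 and 109 CPM in WT and 85.4, 99.3 and 107 CPM in THUMPD1 KO, again lowest in replicate 1. HSP90AA1, the stress-inducible HSP90, was at −0.22 ± 0.05 and the co-chaperone BAG3 at −0.30 ± 0.06. The small heat shock gene HSPB1 was the member called higher, by 0.26 ± 0.06.

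Letters of the heat shock element that HSF1 binds, written as GAANNTTC and the same on both strands, were found in the windows of 11 of 22 heat shock genes with a window and of 8.21% of all genes with a window. This search was chosen after the values were seen. Windows of 30 bases are shown for 4 members called lower, with the first match in capitals.
HSPA1B: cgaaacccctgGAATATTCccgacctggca
HSPA8: ggggcgagcttGAAAGTTCcagaacgctgc
DNAJA1: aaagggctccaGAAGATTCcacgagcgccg
CHORDC1: tttctgccccgGAAATTTCtcctccgctgt
The windows are chr6:31827622-31827651 (plus strand), chr11:123062348-123062377 (minus), chr9:33025064-33025093 (plus) and chr11:90223236-90223265 (minus), in the order shown. In GENCODE 44 that of HSPA1B touches no exon, that of HSPA8 an exon of HSPA8, and those of DNAJA1 and CHORDC1 exons of a neighbouring gene.

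Outside these lists, the genes furthest apart in the same direction in both genotypes included DDR2, a collagen receptor kinase, at 62.3, 36.8 and 36.2 CPM in WT and 31.3, 20.3 and 18.5 CPM in THUMPD1 KO. LRATD2 (0.82 ± 0.09) and GSTO2, an omega class glutathione transferase (0.54 ± 0.07), were also higher. Lower genes included CENPE, the kinesin that moves chromosomes along mitotic microtubules, at 130, 266 and 261 CPM in WT and 224 (replicate 1), 356 and 332 CPM in THUMPD1 KO. CYP1B1, a cytochrome P450 (−0.78 ± 0.09), and ANKRD12 (−0.75 ± 0.06) were lower as well. Several of the other lower genes by size are copies of small RNA or pseudogenes, such as RNU1-3, RN7SL4P, RPL21P119 and RNA5-8SN1, where the division of reads among near-identical copies is uncertain. RNA5-8SN1 and another entry for 5.8S rRNA held the same values in all 6 libraries.

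CENPE stood out from its own list by size. Of 40 G2 and M phase genes tested 3 were called lower and 0 higher (1.03% and 1.69% of all tested genes), with a median of −0.05, and the other called members were CDC20 and ASPM at −0.20 ± 0.04 each. Replicate 1 was below in both genotypes for 16 of the 40 and above in both for 6 (19.0% and 18.9% of all tested genes). DNA replication genes had 2 of 45 called higher, MCM5 (0.17 ± 0.04) and LIG1 (0.18 ± 0.04), against 1.69% of all tested genes. Their median was 0.04. For 20 of the 45 replicate 1 was above in both genotypes, and for 1 it was below in both (18.9% and 19.0% of all tested genes). Apart from the fit without the CPM filter, which called 0 in both lists, the number called was 1 to 6 for G2 and M phase genes and 0 to 3 for DNA replication genes. It was 1 for G2 and M phase genes when WT replicate 2 or 3 was left out. For DNA replication genes it was 1 when WT replicate 1 was left out and 0 when any of the replicates 2 and 3 was. The first 31 lists held 28 others besides ATF4 targets, synthetases and heat shock genes, these included. None of the 28 had more than 3 members called in the fit with genotype as a term. For the 20 of them with at least 9 tested members, medians lay between −0.28 (spliceosomal RNAs) and 0.06 (YAP and TEAD targets). The 3 lists added after values were seen are not among the 28 and are given below. Of these, ribosome biogenesis genes had 1 called higher and 10 lower. Histone genes had 6 called higher and a median of 0.09. Of 7 fibroblast markers 4 were tested, COL1A1 was called higher (0.35 ± 0.07), and 2 had replicate 1 above in both genotypes. In WT, PDGFRA was at −0.13 and LUM at 0.01, with replicate 1 inside the range. The list's summed level was 23.2 CPM in WT replicate 1 against 17.8 and 19.0, and 21.1 CPM in THUMPD1 KO replicate 1 against 14.6 and 14.6. COL1A2 was at 0 in all 6 libraries and DCN at 0 in 4, and the part of other cells in the result was not tested.

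Ribosome biogenesis genes were examined after their values were seen. Of 50 such genes, all tested, 29 had replicate 1 below in both genotypes (19.0% of all tested genes) and 10 were called lower (1.03%), among them NOP16 (−0.39 ± 0.06) and RPF2 (−0.31 ± 0.05), which act in assembly of the large subunit. NOP53 was called higher. The number called in either direction was 3 when WT replicate 3 was left out, 4 when WT replicate 1 was, 5 when THUMPD1 KO replicate 2 was and 7 when WT replicate 2 was. It was 21 with TMM and 0 without the CPM filter. The median was −0.10 on the log2 scale, −0.10 in WT and −0.11 in THUMPD1 KO. CIRBP, a cold-inducible RNA-binding protein chosen in the same way, was read at 140, 96.5 and 96.4 CPM in WT and 104, 83.4 and 84.7 CPM in THUMPD1 KO. RBM3, the other well-known gene of that kind, was at 0.15 ± 0.04 and was not called.

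The difference between WT and THUMPD1 KO in the replicate 1 contrast was fitted as an interaction of genotype and side in limma-voom. Of 15088 genes, 23 (0.152%) passed an adjusted p of 0.05, and 15 of them had opposite signs in the genotypes. Each genotype has 1 library on the side of replicate 1, so the spread came from replicates 2 and 3 with 2 residual degrees of freedom per gene before moderation. The fit assumes that the lone libraries vary like the others, although the split was chosen because they deviated. Passing 0.05 here marks a gap that is large against the spread of replicates 2 and 3, and is not a test. A gene that passed thus shows a difference between these 2 libraries relative to their own genotype, and whether other libraries of the genotypes would differ in the same way was not tested.

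Among ATF4 targets, 4 of 38 passed, all with a larger gap in WT. SLC3A2, the heavy chain of several amino acid transporters, was read at 164, 118 and 119 CPM in WT and 118, 122 and 117 CPM in THUMPD1 KO. Its replicate 1 was apart in WT and inside the range in THUMPD1 KO (difference of the contrast −0.47 ± 0.07). SLC38A2, a neutral amino acid transporter, was read at 381, 254 and 268 CPM in WT and 262, 260 and 242 CPM in THUMPD1 KO (−0.49). SLC7A1, the cationic amino acid transporter, differed by −0.45 ± 0.06. STC2, a secreted glycoprotein, was read at 179, 95.4 and 110 CPM in WT and 101, 96.3 and 101 CPM in THUMPD1 KO (−0.77 ± 0.11). The gap was larger in WT for 31 of the 38 members, and for 158 of the 255 genes called higher over all genes. ASNS and PCK2 did not pass.

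Heat shock genes showed the same order: the difference was more negative in WT for 21 of 22 members. Over all genes, it was more negative in WT for 101 of the 156 called lower. HSPA8 (0.59 ± 0.05) and HSPA1B (0.66 ± 0.10) passed in the interaction fit. EIF5, an initiation factor that acts on eIF2, was read at 268, 374 and 357 CPM in WT and 405, 404 and 388 CPM in THUMPD1 KO. It was low in replicate 1 of WT and the highest in replicate 1 of THUMPD1 KO (0.50 ± 0.07). AMOT, a regulator of YAP, was read at 1738, 1384 and 1430 CPM in WT and 1086, 1076 and 1044 CPM in THUMPD1 KO (−0.37 ± 0.05).

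**Figure D4:**
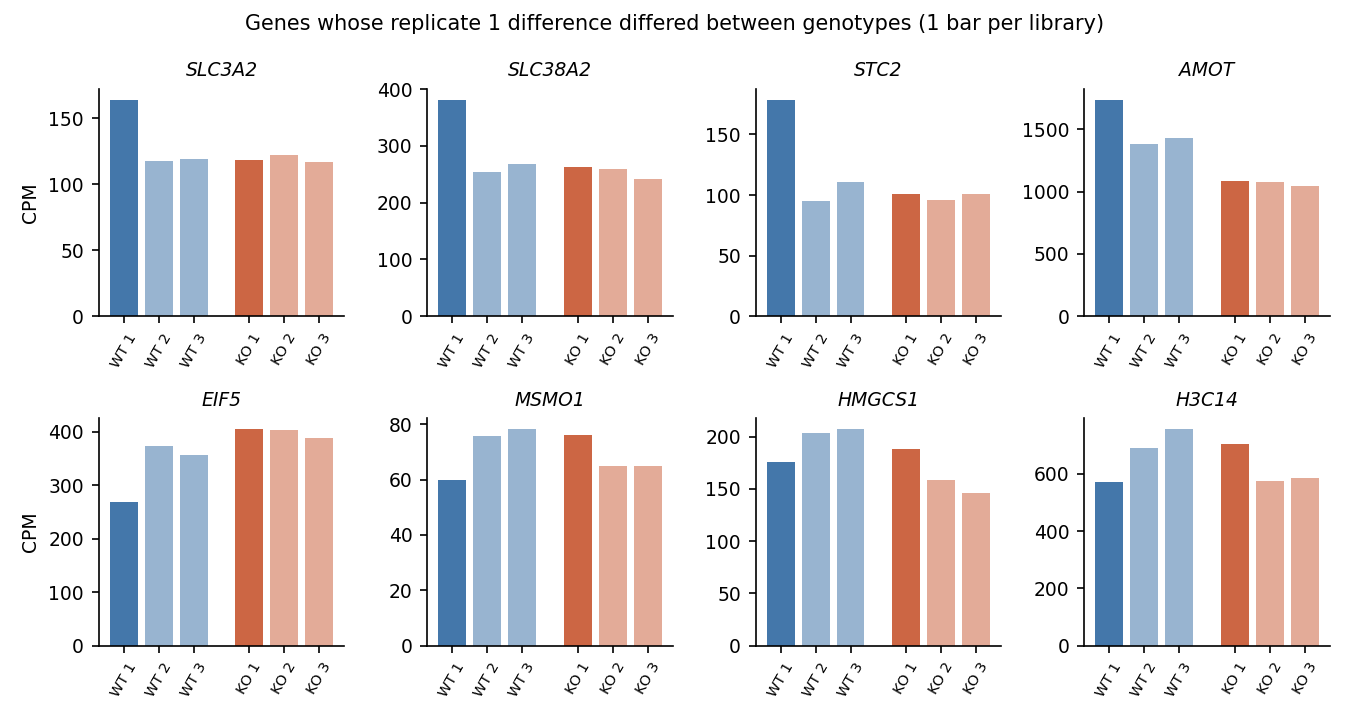
CPM of 8 genes named from the interaction fit, 1 bar per library, with replicate 1 in full colour. SLC3A2, SLC38A2, STC2 and AMOT have a raised first bar in WT, and EIF5, MSMO1, HMGCS1 and H3C14 have a lowered first bar in WT; MSMO1, HMGCS1 and H3C14 have a raised first bar in THUMPD1 KO.

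Sterol synthesis genes went in opposite directions. Of 24 tested, 19 had replicate 1 below replicates 2 and 3 in WT and 16 had it above in THUMPD1 KO. Over all tested genes, 20.7% had replicate 1 outside in opposite directions, in either order, which is no background for counts within 1 genotype. No share of all tested genes is given for 1 genotype alone, so nothing is read from these counts. The median difference was −0.13 in WT and 0.08 in THUMPD1 KO, and 23 members were lower in WT than in THUMPD1 KO by this difference. No member was called in the contrast shared by the genotypes. HMGCS1, which makes the precursor of mevalonate, was read at 175, 204 and 207 CPM in WT and 189, 159 and 146 CPM in THUMPD1 KO (0.55 ± 0.08 in the interaction fit). MSMO1, a methylsterol oxidase, was read at 59.8, 75.7 and 78.2 CPM in WT and 75.9, 64.9 and 64.9 CPM in THUMPD1 KO (0.60 ± 0.07). IDI1, an isomerase of the same pathway, passed in that fit like these genes (0.50 ± 0.07). SREBF2, the transcription factor that drives the pathway, was at 0.15 in WT and 0.16 in THUMPD1 KO. The opposite signs of the list held with library sizes alone (−0.11 and 0.09) and with TMM (−0.15 and 0.06). Cytosolic ribosomal protein genes also had medians on either side of 0, −0.05 in WT and 0.08 in THUMPD1 KO over 79 genes. Replicate 1 was below in WT for 56 of them and above in THUMPD1 KO for 63. Nuclear respiratory chain genes had medians of −0.09 and 0.04, with 47 of 61 below in WT and 33 above in THUMPD1 KO. The counts of these 2 lists also lack a share over all tested genes. Opposite signs were thus not particular to sterol genes, although no member of these other lists passed in the interaction fit.

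Replication-dependent histone genes, chosen after their values were seen, had a median of −0.03 in WT and 0.19 in THUMPD1 KO over 47 tested of 65. In the contrast shared by the genotypes 6 of the 47 were called higher and 0 lower (1.69% and 1.03% of all tested genes). The number called was 10 when either replicate 1 library was left out, 3 when WT replicate 2 or 3 was and 2 when THUMPD1 KO replicate 2 or 3 was. It was 2 with the replicate block and 13 after removal of GC and length trends. H3C14 was read at 573, 689 and 757 CPM in WT and 705, 575 and 585 CPM in THUMPD1 KO (0.61 ± 0.06 in the interaction fit). Both H3C14 and H3C13 (0.67 ± 0.08) passed in that fit. Histone genes are near-identical copies, and their reads may be divided among them.

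The replicate 1 difference was also compared with transcript length. Over 5 equal bins of exon length, from 102 bases upward, the median in WT was −0.06, −0.04, −0.01, 0.02 and 0.04 from short to long. In THUMPD1 KO it was between −0.01 and 0.01 in every bin. After removal of trends with GC content and exon length, 25 ATF4 targets and 13 heat shock genes were called in either direction. That fit also called more genes over all than the main fit, which called 411. The part of length and GC content in these lists was not tested. Of 39 small nucleolar RNAs 7 were called lower and 0 higher (1.03% and 1.69% of all tested genes), with a median of −0.18 in WT and −0.44 in THUMPD1 KO.

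The side of replicate 1 changed what the genotype contrast called. With side as a term, 5567 genes (36.9%) differed between THUMPD1 KO and WT by limma-voom, 2919 higher and 2648 lower, and without it 4025 (26.7%). Of the 4025, 4024 passed in both fits with the same sign, and 1543 genes passed only with the term. The median standard error was 0.058 with the term and 0.070 without. Because the term was chosen with these values known, it removes spread that it was picked for, and its adjusted p-values are not those of a term fixed in advance. With both replicate 1 libraries left out 4884 genes were called.

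ATF4 targets were among the genes affected. With the term 30 of 38 differed between genotypes (36.9% of all tested genes), 28 of them lower in THUMPD1 KO. Without it 15 did (26.7% of all tested genes). ASNS was lower in THUMPD1 KO by 0.51 on the log2 scale, with a limma adjusted p of 4.56e-06 with the term and 0.0756 without. CHAC1 was lower by 1.35 (limma adjusted p = 0.000245 with the term and 0.125 without), while PCK2 passed in both fits. By replicate number, the median difference of the list, THUMPD1 KO minus WT, was −0.44 between the libraries numbered 1, −0.25 between those numbered 2 and −0.29 between those numbered 3. The direction was thus shared by all 3 numbers, and the size was largest between the replicate 1 libraries. Heat shock genes had medians of 0.06, −0.08 and −0.04 for numbers 1, 2 and 3.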

How the data were processed

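Samples were 3 WT and 3 THUMPD1 KO HEK-293T libraries of rRNA-depleted, stranded total RNA, sequenced in paired-end mode. The authors used STAR on GRCh38 and deposited expected counts per gene from RSEM, with no scaling between libraries. The counting strand is not given in the sources used here. Gene names, positions and lengths came from GENCODE 44, which holds 58472 of the 58870 identifiers, although the methods name release 46. The split by replicate number, the genes and the lists were chosen with earlier results of these data known.

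Genes that reached 1 CPM in 3 or more libraries entered limma-voom after quantile normalization (limma 3.58.1, R 4.3.3), with terms for genotype and side, their interaction, or genotype with side. Adjustment followed Benjamini and Hochberg over 15088 genes at 0.05. The fits were tested on simulated data. CPM are on total counts, and differences are on quantile-normalized log2 values. Standard errors do not cover the choice of split.

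Genes were named by a rule. It took 10 higher and 10 lower symbols with a mean of at least 5 CPM and the largest gap shared by both genotypes. It also took up to 4 per list, and up to 5 each from the interaction fit and with opposite signs. THUMPD1, ATF4 and ASNS were always named. Other genes named (further members of the ATF4, synthetase, heat shock and ribosome lists, interaction genes past the first 5, CIRBP and RBM3) were chosen after their values were seen.

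Replicate numbers are shared between genotypes. Deviations from genotype means correlated at 0.171, 0.147 and 0.138 across 15088 genes for numbers 1, 2 and 3. Between unlike numbers the correlations lay between −0.140 and 0.019. The split was chosen because the libraries numbered 1 deviated together, so the value for number 1 restates that choice. Deviations within a genotype sum to 0, so the values for numbers 2 and 3 are not independent of it. That the numbers pair the libraries is thus an assumption of the block fit, taken from the data and not from a label. Alternatives were TMM, library sizes alone, edgeR 4.0.16 and DESeq2 1.42.0 on rounded counts, other filters, quality weights, the replicate block, removal of GC and length trends, and each library left out.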

Additional observations from a re-analysis of the deposited data

Results flagged for a closer look

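Genes that passed in the interaction fit of limma-voom are given with the replicate 1 difference in THUMPD1 KO minus that in WT (log2). HSPA8 (0.59), HSPA1B (0.66), H3C14 (0.61), H3C13 (0.67), MSMO1 (0.60), HMGCS1 (0.55), IDI1 (0.50) and EIF5 (0.50) had the higher value in THUMPD1 KO. SLC3A2 (−0.47), SLC38A2 (−0.49), SLC7A1 (−0.45), STC2 (−0.77), AMOT (−0.37), DSC3 (−0.58), DYNC1H1 (−0.40) and the pseudogene SMG1P1 (−0.71) had the higher value in WT.

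RPPH1 (0.28) and MT-CO1 (−0.28) had the same size. Quantile normalization sets values by rank, and MT-CO1 was above RPPH1 in WT replicate 1 (8014 against 7257 CPM) and below it in WT replicate 2 (7554 against 9201 CPM). With library sizes alone the values were 0.21 for RPPH1 and −0.18 for MT-CO1. RIMBP3C (−6.62), RNU1-3 (−12.17), 7SK (−4.67) and ENSG00000285238 (−7.14) were listed at 0 in THUMPD1 KO replicate 1, so their fitted values depend on the prior count and are no measure of size. ENSG00000285854 (1.64) was read at 3.51, 8.40 and 7.21 CPM in WT replicates 1, 2 and 3 and at 8.35, 5.61 and 6.73 CPM in THUMPD1 KO.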

How the results depend on the processing

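Every one of the 411 genes called in the replicate 1 contrast kept its sign under each other setting that tested it, with 1 exception when GC and length trends were removed. All had replicate 1 outside in the same direction in both genotypes, so a kept sign was close to fixed in advance. Fewer stayed called: 67 without WT replicate 1, 150 without WT replicate 3, 157 with quality weights and 386 with library sizes alone. The number called was 750 with TMM, 943 with library sizes alone, 623 with edgeR, 678 with trends removed, 157 with quality weights and 252 with the replicate block, of which 245 were among the 411. Without the CPM filter limma-voom called 0 genes (3616 at an unadjusted p under 0.05). With 1 library left out it was 145 (without WT replicate 1) to 713 (without THUMPD1 KO replicate 1), with 201, 160 and 195 without WT replicate 2, WT replicate 3 and THUMPD1 KO replicate 2. The interaction called 55 genes with TMM, 61 with library sizes alone, 51 with edgeR, 77 with DESeq2, 70 with trends removed and 2 without the filter. With 1 library left out it called 25 to 66, the lone sample being assumed to vary like the others. It could not be fitted without a replicate 1 library or with the block. The genotype count with the side term was 3744 to 6114 under all settings, 5297 with the block and 3800 to 4911 with 1 library left out. The cause of these changes was not tested.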
